A study of Arabidopsis thaliana with 12 samples.

Results

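Seedlings of the Arabidopsis thaliana mutant eto1-4 grown with the compound 7303 were compared with eto1-4 seedlings grown with AVG, both at 10 µM. The comparison takes 4 of the 12 Affymetrix arrays of the study: 2 of eto1-4 + 7303 and 2 of eto1-4 + AVG. All 4 carried RNA of whole seedlings, 3 days old, grown in the dark on 0.5x MS medium, and all carried the eto1-4 mutation in the Col-0 background, so that genotype, age, dose and growth were matched and the compound in the medium was the labelled difference. Untreated eto1-4 and the wild type Col-0, with 2 arrays each, serve below as a description of where the levels stand, and the arrays of the compounds 9393 and 9370 enter only alternative fits, an alternative filter and the offset added to the signals. The study is about antagonists of ethylene, and the comparison sets a compound known by its code alone beside a known inhibitor of ethylene synthesis. The labels do not say that the replicates came from separate cultures, and the p-values below then reflect no more than the variation among these particular arrays, some or all of which may be technical.

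Ethylene is made from methionine by way of S-adenosylmethionine and ACC, and ACC synthase is the step that is usually limiting. ETO1 marks some ACC synthases for breakdown, and seedlings without its function overproduce ethylene and show the triple response in the dark: a short, thick hypocotyl and an exaggerated apical hook. AVG, aminoethoxyvinylglycine, blocks enzymes that use pyridoxal phosphate as cofactor, ACC synthase among them. Downstream, ethylene receptors hold the pathway off in air, and EIN3 is a transcription factor that turns on response genes once ethylene is bound. ETO1 was not among the genes the annotation names on this array, and no gene of the list of ethylene synthesis was named there. That list was matched by name, so a gene of ethylene synthesis known here by locus alone would be missed. The genes below that have only a locus may include some.

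Each value is the signal of 1 probe set on 1 array, on a linear scale on which every array had been set to the same trimmed mean. Differences are 7303 minus AVG in log2(signal + 22.4), where 22.4 is the 20th percentile of all signals, so that they understate the change of dim genes. Of 22746 probe sets other than controls, 13902 were bright enough to be tested, and 7434 of these (53.5%) name 1 gene. The deviations between replicates were larger with AVG than with 7303: 146 probe sets differed by 1 or more on the log2 scale between the 7303 arrays, and 354 did between the AVG arrays. The 25S ribosomal RNA control gave signals of 5770 and 494 on the 7303 arrays, against 9513 and 7285 on the AVG arrays, and the ratio of 3' to 5' GAPDH signal was 0.956 and 0.880 with 7303 against 1.21 and 1.003 with AVG. The poly-A spike control DapX read 427 and 427 with 7303 and 477 and 433 with AVG, so all 4 arrays carried the spike.

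No probe set passed the test between 7303 and AVG: 0 of 13902 (0%) had an adjusted p under 0.05 in limma with Benjamini-Hochberg adjustment, and the smallest adjusted p was 0.245. At an unadjusted p under 0.05 there were 1592 probe sets (11.5%), of which 813 were higher with 7303 (5.85%) and 779 lower (5.6%). The median difference over all tested probe sets was -0.01, the SD 0.31, and the largest differences were 3.09 and -2.81. The 95% interval of a single difference reached a median of 0.38 to either side, so that at these 2 arrays a group the data do not show that 7303 and AVG act alike. The test did make calls with 2 arrays a group in simulated data with independent noise. It recovered 79.4% of changes of 1 there, although 9.74% of its calls were false. In the arrays compared here, deviations of same-numbered arrays correlated at -0.29. With or without overlap of the groups, 180 probe sets had a difference past 1 here, and 0 were called. The 79.4% need not hold for these arrays and is not taken as the power of this comparison.

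Both 7303 arrays lay above both AVG arrays at 2716 probe sets (19.5%) and below both at 3415 (24.6%). The groups thus stood apart at 6131 probe sets (44.1%). If the 4 arrays fell in random order at each probe set, a share of 0.333 would do so. Standing apart is therefore no evidence of a difference at a single probe set, and the excess over that share was not tested. At 164 probe sets (1.18%) the groups did not overlap and the difference was 1 or more, with 111 higher with 7303 (0.798%) and 53 lower (0.381%). Of these, 72 name 1 gene, 43 of them higher and 29 lower. Leaving out 1 array at a time moved the 164 to between 131 and 339, with 339 without 7303 replicate 1, 131 without 7303 replicate 2, 334 without AVG replicate 1 and 253 without AVG replicate 2. With 1 array left in a group, a difference varies more and groups stand apart more easily, so these counts are not on a par with the 164. None of the genes named from here on passed the test, and their adjusted p is 0.245 or more.

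**Figure D1:**
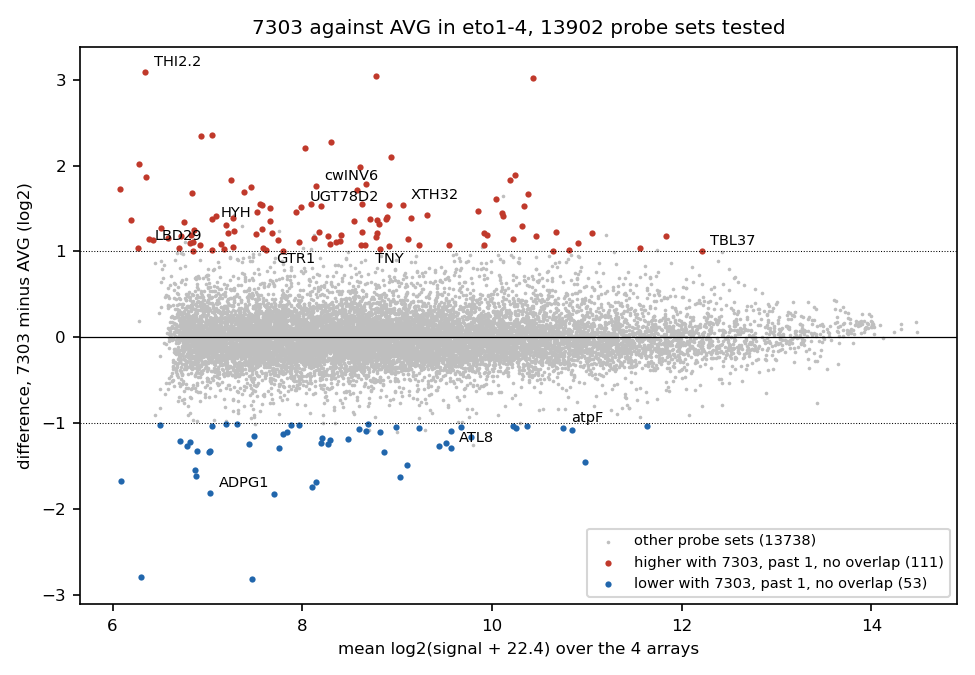
Difference between 7303 and AVG (log2, 7303 minus AVG) against the mean log2 signal of the 4 arrays for 13902 probe sets. Red and blue points are the 111 higher and 53 lower probe sets with groups that do not overlap and a difference of 1 or more, and 12 genes described in the text are labelled.

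Of the 15 genes with the smallest p that were higher with 7303, 5 have a symbol. UGT78D2, a glucosyltransferase that puts glucose on flavonols and anthocyanidins, had signals of 344 and 478 with 7303, against 140 and 117 with AVG. The 7303 arrays lay within the range of the 4 untreated arrays (331 and 784 in eto1-4, 538 and 515 in Col-0) and the AVG arrays below it. The difference was 1.51 ± 0.20 (SE; 95% interval 1.019 to 2.005; unadjusted p = 0.00033), a ratio of mean signals of 3.21. It was the only one of the 29 measured genes on the list of UDP-glycosyltransferases with a difference of 1 or more. That list was matched by name and can leave out family members known here by locus alone.

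GTR1, a transporter that imports glucosinolates into cells, had 397 and 477 with 7303 and 179 and 209 with AVG, a difference of 1.09 (0.69 to 1.48). TNY, annotated as tny, is a transcription factor of the DREB group of the AP2/ERF family and had 544 and 585 with 7303 and 229 and 285 with AVG, a difference of 1.08 (0.70 to 1.45). For both genes the 4 treated arrays stood below all 4 untreated arrays, and the AVG arrays were the lowest of all. ChiC, a class V chitinase, showed another order: 1289 and 1213 with 7303, above all 4 untreated arrays, against 722 and 632 with AVG, which lay within their range. OCT5, of the organic cation and carnitine transporter family, had 412 and 417 with 7303 and 233 and 210 with AVG.

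The other 10 genes of this rank are known here by locus alone. AT2G17680 had the smallest p among them, with 279 and 325 with 7303 and 101 and 78.8 with AVG, a difference of 1.54 (1.09 to 1.98), and the 7303 arrays lay above every untreated array. AT5G15950 had 876 and 824 with 7303 and 369 and 418 with AVG. AT1G06000 had 634 and 890 with 7303 and 257 and 287 with AVG. The differences of the remaining AT2G04570, AT5G41400, AT5G19240, AT5G41900, AT1G22550, AT1G70000 and AT1G78170 lay between 0.69 and 1.38. Of the 15 genes, 6 had both AVG arrays below and the 7303 arrays within or across the untreated range, a placement found for 18.5% of the 2716 probe sets that were higher with groups apart, from which the 15 were chosen by p. For 3 of the 15, the 7303 arrays were above the untreated range and the AVG arrays within or across it, against 16.5% of those 2716.

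Among the 15 genes with the smallest p that were lower with 7303, only ADPG1 and ATL8 have a symbol. ADPG1, a polygalacturonase that cuts pectin where organs are shed and pods open, had 32.0 and 66.9 with 7303, against 198 and 252 with AVG. All 4 stood below the untreated arrays, which read 269.9 and 403 in eto1-4 and 466 and 409 in Col-0. The difference was -1.82 (-2.53 to -1.10; unadjusted p = 0.000867). ATL8, a RING finger protein of a family of ubiquitin ligases, had 391 and 546 with 7303 and 1126 and 1207 with AVG, a difference of -1.29 (-1.74 to -0.85). Here all 4 treated arrays stood above the untreated ones (315 and 327 in eto1-4, 264 and 134 in Col-0), and AVG was the farther away.

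Of the genes known by locus, AT2G29660 had 539 and 594 with 7303 and 1307 and 1277 with AVG, a difference of -1.16 (-1.46 to -0.86) and the smallest unadjusted p of the 30 genes, 9.6e-05. The AVG arrays stood above all untreated arrays and the 7303 arrays within their range. AT1G12010 had 647 and 566 with 7303 and 1185 and 1161 with AVG, a difference of -0.93 (-1.24 to -0.62), beside 547 and 482 in untreated eto1-4 and 541 and 405 in Col-0. AT1G53540 had 51.8 and 67.3 with 7303 and 203 and 166 with AVG. The other 10, AT3G01260, AT5G05960, AT5G10580, AT3G53980, AT1G51830, AT3G46270, AT2G28270, AT1G49310, AT1G30820 and AT4G04630, had differences between -1.61 and -0.73. For 5 of the 15, among them AT1G12010 and ATL8, all 4 treated arrays were above the untreated range. This placement was found for 15% of the 3415 probe sets that were lower with groups apart.

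**Figure D2:**
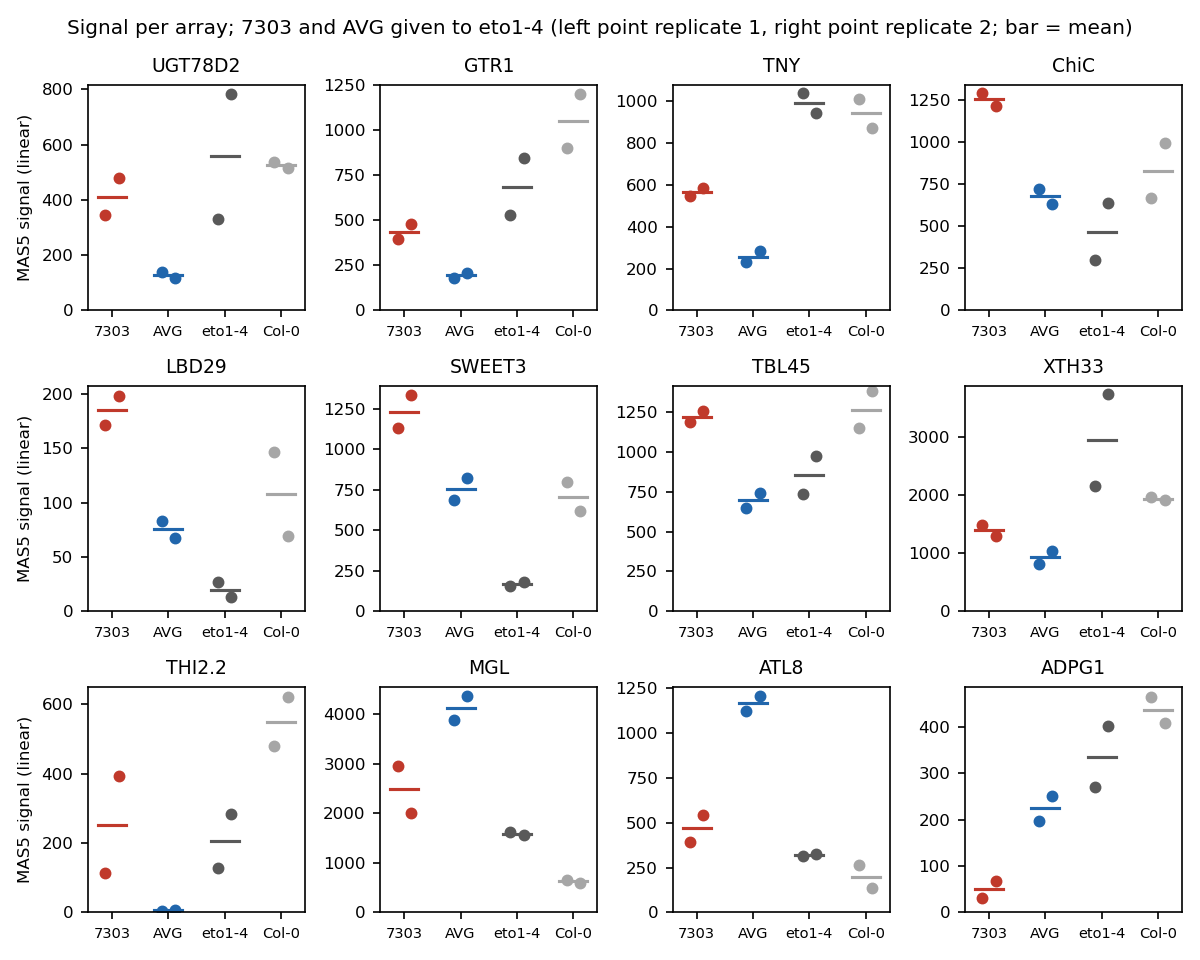
Signal of 12 genes on each array (linear scale, from 0) for eto1-4 with 7303 and with AVG, untreated eto1-4 and Col-0, with 2 arrays a group as points and the mean as a bar. The 7303 and AVG points do not overlap in any of the 12 panels, with 7303 lower for MGL, ATL8 and ADPG1.

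THI2.2, a thionin, which is a small antimicrobial peptide, had 113 and 394 with 7303 and 5.21 and 5.90 with AVG, the largest difference of all tested probe sets at 3.09 (1.78 to 4.39). Both AVG signals lie below the offset, so no fold is given: the difference was 5.02 with an offset of 1 and 2.03 with an offset of 64. Untreated eto1-4 read 127 and 283 and Col-0 479 and 621, so that of these 8 arrays the AVG arrays alone were below the offset. THI2.2 and the next genes were chosen for description after their values were seen. cwINV6, annotated as a fructan exohydrolase, had 555 and 450 with 7303 and 93.5 and 182 with AVG, a difference of 1.76. Among named genes with groups apart, AT1G19960 had the lowest difference, -2.79, beside a lowest of -2.81 over all tested probe sets. It had 15.4 and 1.29 with 7303 and 326 and 100.4 with AVG, where both 7303 signals lie below the offset.

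The 4 measured genes of ethylene signalling were all lower with 7303, with groups that did not overlap (24.6% of all tested probe sets were placed so) and a list median of -0.36, although none had an unadjusted p under 0.05. RTE1, which acts with the ethylene receptor ETR1 to hold the response off, had 238 and 203 with 7303 and 268 and 465 with AVG, a difference of -0.63 (-1.28 to 0.01). Untreated eto1-4 read 788 and 782 and Col-0 226 and 119, so that the 7303 arrays lay to either side of Col-0 replicate 1, and the AVG arrays were apart from each other. The difference of RTE1 was -0.26 without AVG replicate 2 and -1.01 without AVG replicate 1. EIN3 had 3392 and 2978 with 7303 and 3805 and 3708 with AVG (-0.24; -0.53 to 0.05). ETP2, an F-box protein that targets EIN2 for degradation, had 102 and 143 with 7303 and 178 and 177 with AVG (-0.48; -0.97 to 0.01). RTH, the homologue of RTE1, differed by -0.18 (-0.52 to 0.15).

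The 3 measured genes of the ethylene response list had differences below 0 with overlapping groups, and for ARL and LCR67 the AVG arrays lay far apart. ARL, a relative of the organ size gene ARGOS, had 1247 and 1187 with 7303 and 990 and 2678 with AVG, beside 4542 and 3761 in untreated eto1-4. Its difference of -0.42 (-1.48 to 0.65) became 0.29 without AVG replicate 2. EXPA9, an expansin, showed the same spread with 1712 and 802 with 7303 and 495 and 2685 with AVG, a difference of 0.01 (-1.91 to 1.94) that ran from -1.18 without AVG replicate 1 to 1.21 without AVG replicate 2. LCR67, a defensin, had 268 and 371 with 7303 and 215 and 469 with AVG, and PDF1.4 had 156 and 201 against 231 and 185. PDF1.2 was not bright enough to be tested. Of the auxin synthesis genes, YUC6 differed by 0.13 (-0.46 to 0.72) and YUC2 by -0.10 (-0.59 to 0.40), both flavin monooxygenases that make indole-3-acetic acid, while YUC4 and YUC11 were too dim.

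Of 8 genes of methionine and sulphur amino acid metabolism, 2 were lower with 7303 at an unadjusted p under 0.05 and none higher (5.6% and 5.85% of all tested probe sets). The median was -0.12, and -0.03 without 7303 replicate 2 and -0.23 without 7303 replicate 1. MGL, methionine gamma-lyase, which breaks methionine down, had 2956 and 2004 with 7303 and 3885 and 4368 with AVG, a difference of -0.75 (-1.25 to -0.26; unadjusted p = 0.0101). Untreated eto1-4 read 1622 and 1558 and Col-0 659.97 and 595, so the 7303 arrays stood between the AVG arrays and untreated eto1-4. CBL, cystathionine beta-lyase, which makes the precursor of methionine, had 913 and 896 with 7303 and 1103 and 1162 with AVG (-0.32; -0.60 to -0.03). Both enzymes use pyridoxal phosphate, as does DELTA-OAT, ornithine aminotransferase, at 864 and 725 with 7303 and 1386 and 977 with AVG (-0.54; -1.03 to -0.05). The list of pyridoxal phosphate enzymes had 2 named genes on the array, and DELTA-OAT was the only one measured. Such enzymes as a group were therefore not assessed. The ATP sulphurylases APS3 and APS4 differed by 0.21 and -0.15, the sulphite reductase SIR by 0.02 and the dioxygenase ARD4 of the methionine salvage cycle by -0.15.

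Of 11 measured auxin-responsive genes, 8 had a difference above 0 and the median was 0.35, against 47.3% above 0 and a median of -0.01 among all tested probe sets. Much of this lay with 1 array: without AVG replicate 2 the median was 0.07 and 6 of 11 were above 0, and without AVG replicate 1 the median was 0.56. At an unadjusted p under 0.05, 2 were higher and 1 lower (5.85% and 5.6% over all). LBD29, a LOB domain transcription factor of lateral root formation, had 171 and 198 with 7303 and 83.1 and 67.5 with AVG, a difference of 1.09 (0.62 to 1.55). WES1, a GH3 enzyme that joins indole-3-acetic acid to amino acids, had 3887 and 3929 with 7303 and 3130 and 2710 with AVG (0.42; 0.12 to 0.72). IAA20, a repressor of the Aux/IAA family, was lower with 362 and 349 with 7303 and 458 and 585 with AVG (-0.52; -0.91 to -0.13). GH3.3, GH3.17 and HAT2 had AVG arrays that lay apart, with HAT2 at 2595 and 2571 with 7303 and 2441 and 1199 with AVG. GH3.3 differed by 0.23, and by -0.43 without AVG replicate 2.

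Other hormone genes had differences under 1. The gibberellin receptors GID1A and GID1C had differences of -0.34 (-0.65 to -0.04) and -0.31 (-0.63 to 0.01), and GID1B of 0.13 (-0.25 to 0.50). RR16, a type-A response regulator of cytokinin signalling, had 93.0 and 177 with 7303 and 134 and 162 with AVG. Among 7 genes of the abscisic acid list, LEA18 alone had an unadjusted p under 0.05, with 710.3 and 732 with 7303 and 583 and 574 with AVG. The jasmonate transcription factors MYC3 and MYC4 differed by -0.04 and 0.13.

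The lists of the cell wall gave medians on both sides of 0. Of 26 measured genes of cellulose and xylan, 18 differences were above 0 and the median was 0.15, or 0.08 without AVG replicate 1. At an unadjusted p under 0.05, 4 were higher and none lower (5.85% and 5.6% over all tested probe sets). Of these, 3 belong to the TRICHOME BIREFRINGENCE-LIKE family, whose members are known for adding acetyl groups to wall polysaccharides. That family makes up most of the list, so it is not singled out by this. Its members TBL23, TBL32, TBL35 and TBL36 had differences below 0, between -0.09 and -0.05. TBL45 had 1187 and 1251 with 7303 and 647 and 744 with AVG, a difference of 0.79 (0.47 to 1.11), and TBL38 had 1846 and 1861 with 7303 and 1307 and 1332 with AVG (0.48; 0.21 to 0.76). TBL37 had 5786 and 7745 with 7303 and 4464 and 2464 with AVG, so its AVG arrays lay apart from each other. COB, or COBRA, a membrane-anchored protein that orients cellulose, differed by 0.32 (0.03 to 0.62).

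Expansins loosen the wall, though whether the EXLA and EXLB members of the expansin list do was not examined. Of its 13 measured genes, 11 differences were above 0 (47.3% over all), with a median of 0.27. That median was 0.13 without AVG replicate 1 and 0.18 without 7303 replicate 1. At an unadjusted p under 0.05, 2 were higher and 1 lower (5.85% and 5.6% over all). EXLA1 had 3442 and 3309 with 7303 and 2602 and 2778 with AVG (0.33; 0.05 to 0.60), and EXLA2 differed by 0.40 (0.02 to 0.79). EXLB1 stood against them with 320.2 and 289 with 7303 and 575 and 452 with AVG, a difference of -0.71 (-1.10 to -0.31). Of 6 xyloglucan endotransglucosylases, which cut and rejoin xyloglucan, XTH33 had 1482 and 1301 with 7303 and 814 and 1044 with AVG (0.58; 0.18 to 0.98). XTH32 had 556 and 1404 with 7303 and 401 and 208 with AVG, a difference of 1.54 with an interval of 0.36 to 2.72. XTH16, XTH18, XTH19 and EXGT-A3 had differences between -0.20 and 0.14, and the 3 pectin genes measured between -0.11 and 0.04, with a median of -0.10.

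Transporters gave some of the larger values. SWEET3, a member of the sugar exporter family, had 1130 and 1336 with 7303 and 688 and 824 with AVG, a difference of 0.69 (0.31 to 1.07), with untreated eto1-4 at 157 and 179. SWEET16, at the vacuole membrane, had 1737 and 2017 with 7303 and 1503 and 1318 with AVG (0.41; 0.07 to 0.75). SWEET17 and SWEET2 differed by 0.65 and 0.73 with overlapping arrays, and by 0.21 each without AVG replicate 2. SWEET1 differed by -0.43 and SWEET11 by 0.11, and the median of 8 sugar transporters was 0.26. Of the nitrate and peptide transporter family, NPF6.4 (AT3G21670) had 453 and 1185 with 7303 and 341 and 110.2 with AVG, a difference of 1.79 (0.31 to 3.26), and NPF4.4 (AT1G33440) had 117 and 129.7 with 7303 and 201 and 222 with AVG (-0.68; -1.08 to -0.29).

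The list of glucosinolates is mostly beta-glucosidases taken in by family name, and which of them act on glucosinolates was not examined. Among its 13 measured genes, 3 were higher and 1 lower at an unadjusted p under 0.05 (5.85% and 5.6% over all). GTR1 above had the largest difference, and GTR2 differed by -0.10. AOP1, a dioxygenase whose relatives modify glucosinolate side chains, had 909 and 1002 with 7303 and 645 and 639 with AVG (0.56; 0.25 to 0.86). The beta-glucosidases BGLU40 and BGLU25 differed in opposite directions, by 0.53 and -0.40. UGT76E2 had 1182 and 1475 with 7303 and 1072 and 733 with AVG. It and UGT78D2 alone on the list of UDP-glycosyltransferases had an unadjusted p under 0.05. The median of that list was 0.06, with 16 of 29 differences above 0, and it was -0.01 without AVG replicate 2 and -0.002 without 7303 replicate 1. Of 10 glutathione S-transferases, GSTU26 alone had an unadjusted p under 0.05 (0.35; 0.08 to 0.62), and of 10 cytochrome P450 genes CYP71B34 alone (0.30; 0.01 to 0.59). Peroxidase 71 (AT5G64120) had 1413 and 1036 with 7303 and 818 and 877 with AVG. The defensin LCR69 differed by -0.35 (-0.60 to -0.09).

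HYH, a bZIP transcription factor of light signalling and a homologue of HY5, had 195 and 459 with 7303 and 159 and 66.3 with AVG, a difference of 1.35 (0.17 to 2.53). GI, or GIGANTEA, a protein of the circadian clock, had 1310 and 1280 with 7303 and 1220 and 644 with AVG. In both genes AVG replicate 2 was the lowest array, and without it the differences were 0.83 for HYH and 0.08 for GI. Without 7303 replicate 2 they were 0.78 for HYH and 0.55 for GI.

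**Figure D3:**
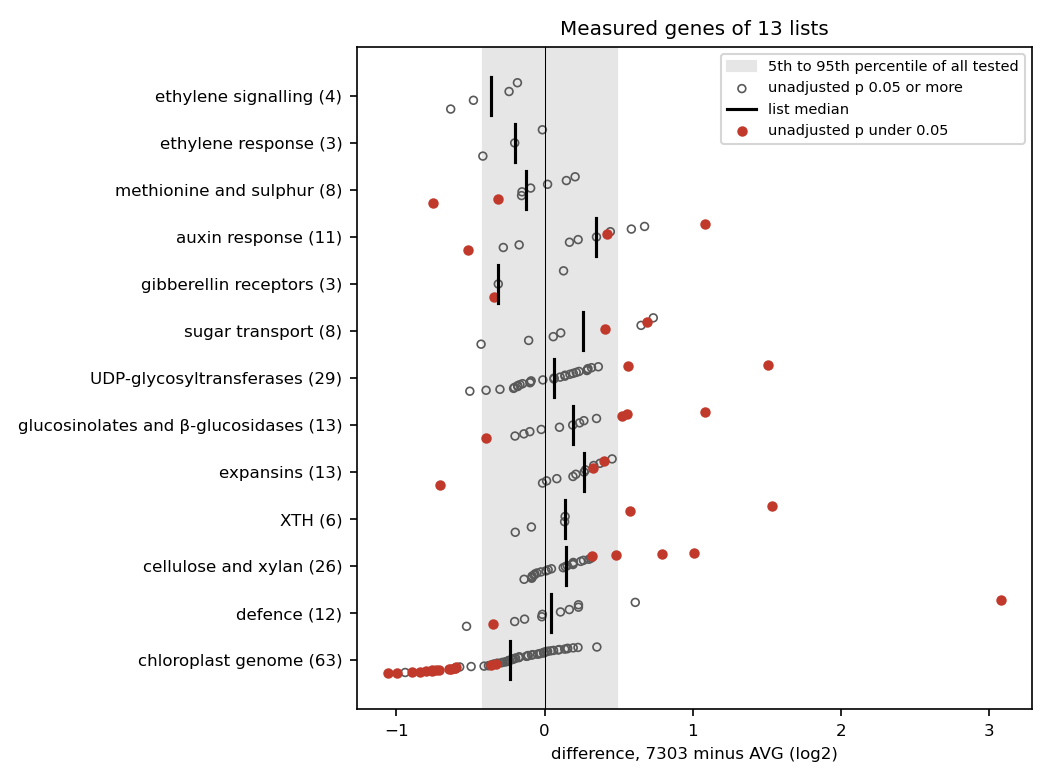
Difference between 7303 and AVG (log2) of each measured gene on 13 lists, with the number of genes in brackets, the list median as a black bar and the 5th to 95th percentile of all tested probe sets in grey. Filled points have an unadjusted p under 0.05, and none passed adjustment. The 16 filled points of the chloroplast genome all lie left of 0.

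Transcripts of the chloroplast genome mostly had lower signals with 7303. Of 63 measured genes, 51 had a difference below 0 and 12 above (47.3% of all tested probe sets were above), the median was -0.24 against -0.01 over all, 16 were lower and none higher at an unadjusted p under 0.05 (5.6% and 5.85% over all), and 0 passed adjustment. The groups did not overlap for 35 lower genes and 2 higher ones, against 24.6% lower and 19.5% higher among all tested probe sets. The chloroplast genome codes for parts of the photosystems, the ATP synthase, the NDH complex, ribosomes and its own RNA polymerase, and these transcripts mostly lack stable poly-A tails. The median signal of the 63 genes was 2203 and 1810 with 7303, against 2605 and 2540 with AVG, so both 7303 arrays were lower and 7303 replicate 2 the lowest.

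The size varied with the complex, and part of that lay with 7303 replicate 2. The 5 genes of photosystem I all had lower signals with groups apart and a median of -0.65, and so had the 5 genes of the ATP synthase, with a median of -0.80. The 14 genes of photosystem II had a median of -0.14 and the 7 of the large ribosomal subunit of -0.05. The lowest was atpF, which had 1848 and 740 with 7303 and 2605 and 2336 with AVG, a difference of -1.06 (-2.05 to -0.07). Its neighbours in the same operon, atpH and atpA, had -0.99 and -0.80. Without 7303 replicate 2, atpF differed by -0.41, atpH by -0.35 and atpA by -0.31. For psaA, of photosystem I, the difference went from -0.94 to -0.37 without that array. psbA, of the photosystem II core, had 365 and 242 with 7303 and 495 and 546 with AVG (-0.76; -1.27 to -0.25), and ccsA, of cytochrome c assembly, had 2203 and 1776 with 7303 and 3302 and 2752 with AVG (-0.60; -0.997 to -0.208). The highest was rpl22, of the large ribosomal subunit, at 0.35 (-0.05 to 0.76).

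**Figure D4:**
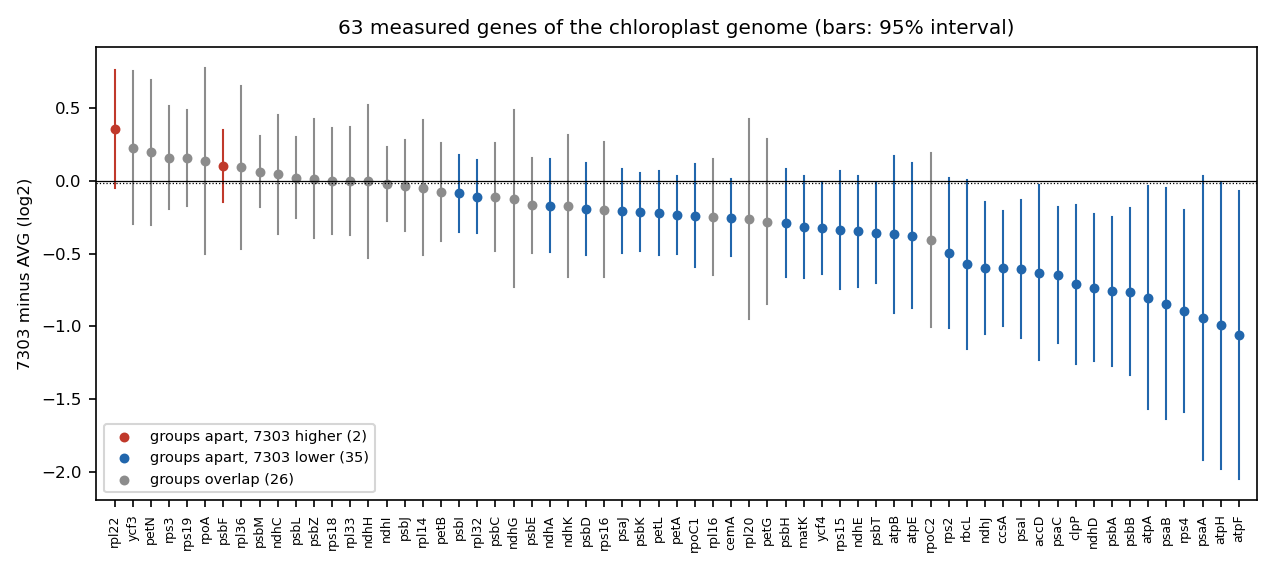
Difference between 7303 and AVG (log2) of the 63 measured chloroplast genes in order of size, with 95% intervals, a dotted line at the median of all tested probe sets and colours for groups that do or do not overlap. The 35 blue genes run to -1.06 at atpF.

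The control signals moved with the same arrays. 7303 replicate 2, the lowest for chloroplast transcripts, also had the lowest 25S signal of the 4 arrays (494), and the GAPDH 3'/5' ratio was 0.956 and 0.880 with 7303, against 1.21 and 1.003 with AVG. Their part in the difference was not tested. Without 7303 replicate 2, the median of the chloroplast genes was -0.20 with 51 of 63 differences below 0. Without AVG replicate 2 it was -0.17 with 44 below 0, and without AVG replicate 1 -0.30 with 57 below 0. Leaving out 7303 replicate 1 gave -0.25 with 46 below 0.

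Photosynthesis genes of the nucleus lay on both sides of 0. The 9 measured had a median of 0.07, 6 above 0 and 3 below, and only LHCB4.3, an antenna protein of photosystem II, had an unadjusted p under 0.05 (0.46; 0.12 to 0.80). Their spread between replicates ran opposite ways in the groups. PSAE-1, a subunit of photosystem I, had 2540 and 5801 with 7303 and 4800 and 2793 with AVG, and LHCB4.2 had 6531 and 10585 with 7303 and 9132 and 5272 with AVG. In all, 7 of 9 (77.8%) had replicate 2 as the higher 7303 array and replicate 1 as the higher AVG array, a placement found for 22% of all tested probe sets. RCA, rubisco activase, differed by 0.18 and PORB, which reduces protochlorophyllide in light, by -0.25.

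Marker genes of the parts of the seedling were few. The root hair expansins EXPA7 and EXPA18 had summed signals of 535 and 348 with 7303 and 298 and 408 with AVG, with differences of 0.27 and 0.28. Of the 3 mesophyll markers 2 differences were above 0, and of 4 seed and embryo markers all 4, between 0.02 and 0.31. Without AVG replicate 2 the mesophyll count was 1 of 3, and without AVG replicate 1 the seed and embryo count was 2 of 4. The guard cell markers FMA, SPCH and MUTE were too dim to be tested, and the lists for root cap, endodermis, xylem, phloem and shoot epidermis had no named member on the array. In whole seedlings, fewer cells of a type and less RNA per cell cannot be told apart.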

How the data were processed

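The deposited signal intensities are MAS5 values, per the submitters' processing notes. No version of it is given in the sources used here, and the trimmed mean was 500.04 to 500.045 on all 12 arrays, so each had been scaled alike. Probe sets were named through the platform annotation and the locus tags, symbols and synonyms of TAIR10.1: 13436 name 1 gene, 503 several, 77 match no locus and 8730 are unnamed here. The 64 control probe sets were left out. Intensities plus 22.4 were taken to log2, and probe sets above their array's 40th percentile on at least 2 of the 4 arrays were tested with an intensity trend in limma 3.58.1 (R 4.3.3; 2 residual and 3.77 prior degrees of freedom). All adjusted p are Benjamini-Hochberg over 13902 probe sets. An exact permutation test of 2 against 2 arrays cannot go below p = 0.333. The script was tested on simulated data (200 genes of 13902 changed, 5 simulations).

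The genes described are the 15 on either side with the smallest p among those with groups apart, since none was called, and all measured genes of the ethylene and auxin synthesis lists; other genes were taken from the lists or, where large, after their values were seen. Members and the 48 lists, 14 of which had no measured gene, were chosen with earlier results of these data known. Members were matched by symbol or synonym, and for some lists by locus, so a list can lack family members known here by locus alone. Statements about a family hold for its list. A gene with several probe sets was represented by the brightest.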

Additional observations from a re-analysis of the deposited data

How the results depend on the processing

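The count of called probe sets was 0 with all 12 arrays in the fit (smallest adjusted p 0.9999, 562 at an unadjusted p under 0.05), without a filter (2125 unadjusted), with stricter or wider filters, with an offset of 1 or 64, after quantile normalization or median centring, without the intensity trend and with a robust prior. Leaving out 1 array at a time gave 0 to 3 called probe sets, with 0 among the list genes and the named genes each time. The 3 came without AVG replicate 2, and are AT3G29970 (higher), AT5G39520 (lower) and an unnamed probe set (lower), where the lone AVG array is assumed to vary like the 7303 arrays. The 164 differences past 1 with groups apart numbered 104 with an offset of 64, and 131 to 339 when 1 array was left out; these settings were chosen after seeing the data. With an array left out, none of the 30 genes chosen by p turned direction, and none of the 50 list genes with an unadjusted p under 0.05, but 101 of all 265 measured list genes did (the list genes and list medians were refitted without each array after seeing the data). Of the ethylene and auxin synthesis genes, 4 turned: LCR67 ranged from -0.54 to 0.51, ARL from -1.12 to 0.29, YUC6 from -0.10 to 0.36 and YUC2 from -0.25 to 0.062, and the cause was not tested. LCR67 was above 0 without 7303 replicate 1 (0.20) and without AVG replicate 2, ARL without AVG replicate 2 and YUC2 without 7303 replicate 1, and YUC6 was below 0 without AVG replicate 1.

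With the replicate number as a block, 0 probe sets were called (smallest adjusted p 0.558, 1144 at an unadjusted p under 0.05). Deviations of same-numbered arrays correlated at -0.29 over probe sets, and 25S was lower on replicate 2 in both groups. The labels do not tie same-numbered arrays to each other, so the numbers were not used as pairs. With the numbers crossed as the block, which was added after seeing the data, 381 probe sets were called (278 higher and 103 lower with 7303), 14 of them list genes, and 30 of the named genes. No label gives that pairing and it was chosen for the very deviations it removes, so these counts support no call.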

Other observations

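Among the genes with the larger differences that carry no symbol here, chosen after their values were seen, AT3G56290 had 439 and 1021 with 7303 and 150.1 and 97.6 with AVG, beside 368 and 1089 in untreated eto1-4 and 1161 and 1246 in Col-0. AT3G29970 had 2375 and 1985 with 7303 and 318 and 1101 with AVG. AT2G43590 had 1108 and 1303 with 7303 and 4576 and 2401 with AVG, and AT5G50335 had 123 and 133 with 7303 and 293 and 786 with AVG. None passed the test.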
